A study of Drosophila melanogaster with 4 samples.

Results

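The left arm of chromosome 2 of Drosophila melanogaster, 2L, held 2460 of the 14326 regions (17.2%) called as enriched for histone H3 monomethylated at lysine 4 (H3K4me1) in wandering larvae of the last larval stage, L3. Every peak listed on 2L was taken, with no filter on width or score. The peaks did not overlap, and together they covered 3.47 Mb, or 15.1% of the sequence between the first base of the arm and the end of its last peak at 22960330. Positions are in FlyBase release 5 coordinates and are counted from 1. The low coordinates lie at the telomere, the free end of the arm, and the high coordinates lie towards the centromere.

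The list was made from chromatin immunoprecipitation followed by sequencing (ChIP-seq), with 2 H3K4me1 ChIP samples and 2 input DNA samples, the input being chromatin DNA without the antibody step. All 4 samples came from the strain Y cn bw sp, whose sex was labelled unknown. They shared one genotype, with y[1] and oc[R3.2] on the first chromosome listed. The next chromosome carried Gr22b[1], Gr22d[1] and cn[1], together with CG33964[R4.2], bw[1] and sp[1]. The last carried LysC[1], lab[R4.2] and MstProx[1], along with GstD5[1] and Rh6[1]. Per the labels, larvae were fixed in formaldehyde, and the antibody was an affinity-purified rabbit polyclonal. Nothing in the labels tells whether replicates came from different batches of larvae. Since whole larvae were used, a mark present in few cells and a weak mark in many cells cannot be told apart. The list gives 1 interval and 1 score per peak and no value per sample. The values below therefore have no error between replicates and no test, and the sequencing depth is unknown.

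H3K4me1 is found at enhancers, primed as well as active, and on the flanks of active promoters, where trimethylation of the same lysine takes its place close to the start site. In Drosophila it is placed mainly by the methyltransferase Trithorax-related, which works in a complex with Utx, a demethylase that removes methyl groups from lysine 27 of the same histone. Genes with many enhancers, such as those that pattern the body and its imaginal discs, can lie in long stretches of the mark. Arm 2L carries several developmental genes of this kind, among them decapentaplegic and wingless, which encode secreted signals. Positions of genes in release 5 were not used here, so no peak below is assigned to a gene.

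Peaks on 2L ranged in width from 200 bp to 23.3 kb, with a median of 803 bp and quartiles of 386 and 1682 bp. Narrow peaks were common but held little of the covered sequence. The 850 peaks under 500 bp were 34.6% of the peaks and held 7.95% of the covered sequence. The 106 peaks of 5 kb or wider were 4.31% of the peaks and held 24.5% of that sequence. Between these in width, 567 peaks of 500 bp to 1 kb held 11.8% of the covered sequence and 562 peaks of 1 to 2 kb held 23.2%. The 375 peaks of 2 to 5 kb held 32.5%, the largest share of these width classes. The score that the authors' peak caller gave each peak has no stated scale, and it is used here only to rank and describe peaks. It ran from 6.09 to 376, with a median of 33.4 and quartiles of 16.7 and 75.9. Median score was 14.6 for peaks under 500 bp, 30.4 for those up to 1 kb, 58.2 up to 2 kb, 114 up to 5 kb and 184 beyond. Spearman's rho between score and width was 0.88 over the 2460 peaks, both values being given by the same caller.

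The arm was divided into 92 windows of 250 kb counted from position 0, the last of them cut at the end of the last peak. Coverage differed widely between windows. The median window had 13.3% of its sequence under peaks, with quartiles of 7.23% and 23.4%, a lowest value of 0% and a highest of 47.9%. There were 20 windows below 5%, 14 from 5 to 10%, 17 from 10 to 15%, 10 from 15 to 20%, 13 from 20 to 25%, 11 from 25 to 30% and 7 at 30% or above. The richest 18 windows, 19.6% of all windows, held 40.8% of the covered sequence and 36.6% of the peaks. The poorest 18 held 1.95% of the covered sequence and 3.90% of the peaks. Marked sequence was thus unevenly spread along the arm at this scale.

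**Figure D1:**
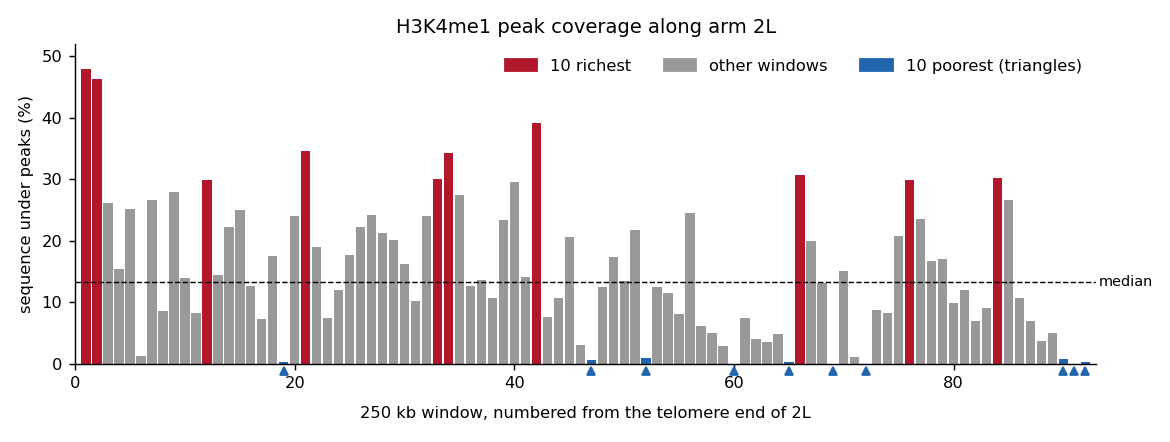
Share of sequence under H3K4me1 peaks (%, vertical axis) in each of the 92 windows of 250 kb along 2L, numbered from the telomere end; the dashed line is the median window (13.3%), and triangles mark the 10 poorest windows. The first windows reach 47.9% and 46.3%, a long low stretch runs from window 57 to window 65, and the last 7 windows all lie below the median.

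The richest pair of windows lay side by side at the telomere end. Window 1, from 1 to 250000, was covered to 47.9% by 42 peaks, 8 of them 5 kb or wider. Window 2, from 250001 to 500000, was covered to 46.3% by 57 peaks centred in it, 5 of them that wide. The next, window 42 from 10250001 to 10500000, was built differently: it was covered to 39.1% by 87 peaks, none of 5 kb, and its widest was 4782 bp. Mean peak width was 2864 bp in window 1, 2021 bp in window 2 and 1126 bp in window 42. Window 1 thus reached higher coverage than window 42 with fewer and wider peaks, although its 42 peaks were also above the median of 26 in the 72 windows outside the 10 richest and the 10 poorest.

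The other rich windows stood singly or in pairs along the arm. Windows 21 (5000001 to 5250000) and 34 (8250001 to 8500000) were covered to 34.6% and 34.3%, by 62 and 57 peaks. Window 66 (16250001 to 16500000) followed with 30.7% from only 35 peaks, of which 5 were 5 kb or wider. Window 84 (20750001 to 21000000) had 30.3%, also with 5 such peaks. The group was completed by windows 33 (8000001 to 8250000), 12 (2750001 to 3000000) and 76 (18750001 to 19000000), with 29.99%, 29.9% and 29.8%. With the arm cut into 5 equal segments of 4.59 Mb, numbered from the telomere, 3 of the 10 richest windows lay in segment 1, 3 in segment 2, 1 in segment 3, 1 in segment 4 and 2 in segment 5.

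The poorest windows held few peaks, and at the median those were narrow and low in score. The highest score among them was 57.0. No peak touched 4 windows, at 14750001 to 15000000, 17000001 to 17250000, 17750001 to 18000000 and 22500001 to 22750000. Window 65, from 16000001 to 16250000, held 1 peak of 722 bp, of which 477 bp fell inside it (0.19%). It borders window 66, one of the richest. The last window, 22750001 to 22960330, held 1 peak of 481 bp (0.23%), and window 19, 4500001 to 4750000, held 2 peaks (0.26%). Windows 47 (11500001 to 11750000), 90 (22250001 to 22500000) and 52 (12750001 to 13000000) had 0.65%, 0.72% and 0.91%. None of the 10 poorest lay in segment 1, whereas 1 lay in segment 2, 2 in segment 3, 4 in segment 4 and 3 in segment 5.

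The 547 peaks of the 10 richest windows were 928 bp wide at the median and had a median score of 39.2. Their widest peak was 23.3 kb and 6.03% of their peaks were 5 kb or wider. The 16 peaks of the 10 poorest were 454 bp wide at the median, scored 20.1 at the median and were never wider than 750 bp. In the 72 windows between these groups there were 1897 peaks, 779 bp wide at the median, with a median score of 32.4 and 3.85% of 5 kb or wider. The windows were ranked by coverage, which is made of peak number and width, so these values describe the groups and test nothing.

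Across windows, coverage followed the number of peaks more closely than their size. Spearman's rho was 0.93 between covered share and peaks per window (92 windows), and 0.61 between covered share and mean peak width (the 88 windows with a peak centred in them). It was 0.43 between covered share and median score, and 0.31 between peak number and mean width. Covered share is built from the first 2 of these measures, and all come from the same list. The number of stretches per window, made by joining peaks across gaps of 1000 bp or less, gave a rho of 0.84 with coverage. The longest peak-free stretch inside a window gave -0.78.

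**Figure D2:**
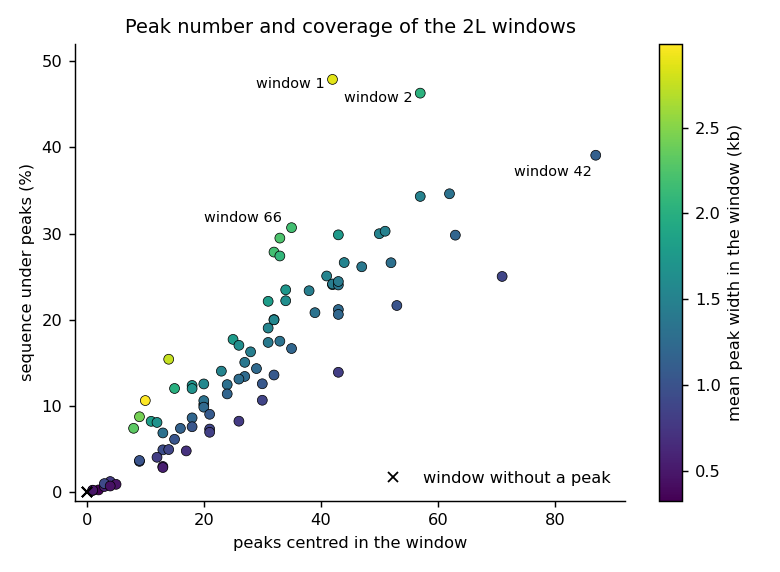
Each point is a window of 250 kb on 2L, placed by the number of peaks centred in it (horizontal axis) and its share of sequence under peaks (%, vertical axis), with colour giving mean peak width (kb); the cross marks windows without a peak. Window 1 reaches 47.9% with 42 peaks of 2.86 kb on average, while window 42 needs 87 peaks of 1.13 kb for 39.1%.

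Neighbouring windows were only partly alike. Pearson's r of covered share was 0.38 between adjacent windows (91 pairs), 0.23 at 500 kb (90 pairs), 0.095 at 750 kb (89 pairs), -0.073 at 1 Mb (88 pairs) and 0.23 again at 2 Mb (84 pairs). These pairs share windows, so r is a description. Coverage could change abruptly at a window border. The largest step between neighbours separated window 42 (39.1%) and window 43 (10500001 to 10750000), which had 7.59%. The step between window 65 (0.19%) and window 66 (30.7%) was almost as large. Window 6 (1250001 to 1500000), with 1.23%, stood between window 5 with 25.1% and window 7 with 26.6%.

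Split at the median window, the arm formed 34 runs of windows on one side of it. At the telomere end the first run, above the median, was windows 1 to 5, from 1 to 1250000, with 32.2% of the sequence covered by 201 peaks. Their median width was 1034 bp, and 9.45% of them were 5 kb or wider. A pair of interior runs of 1 Mb each was also rich, windows 32 to 35 (7750001 to 8750000) with 28.9% and windows 39 to 42 (9500001 to 10500000) with 26.5%. They were denser, at 183 and 181 peaks per Mb against 161 in windows 1 to 5. Their share of peaks of 5 kb or wider was 4.37% and 3.31%. The longest run above the median anywhere, windows 25 to 30 (6000001 to 7500000), was even in its coverage, with 20.3% overall and single windows between 16.3% and 24.2%.

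The low runs were sparse but held some peaks. Their longest peak-free stretches, in the order given below, were 332, 487 and 365 kb. The longest low run, windows 57 to 65 from 14000001 to 16250000, was covered to 3.77% by 96 peaks, or 42.7 per Mb. No peak in it reached 5 kb, and the widest was 4.07 kb. Of its peaks, 14 (14.6%) were in the upper 25% of the whole list's scores, against 23.9% of all 2L peaks, and the highest scored 193. Of its 45 joined regions, 2 had 5 or more peaks, against 132 of 978 on the whole arm. Windows 86 to 92, the run next to the centromere from 21250001 to 22960330, were covered to 3.96% by 71 peaks, with no peak of 5 kb, a widest of 3.52 kb and a highest score of 292. Windows 71 to 74, from 17500001 to 18500000, were covered to 4.49% by 38 peaks. That run contained 1 peak of 13.3 kb, at 18139092 to 18152347, which has rank 8 by width on the arm. These runs were picked out by their values.

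Coverage was lower towards the centromere than near the telomere, but did not follow an even slope. In segments 1 to 5, counted from the telomere, the covered share was 20.5%, 19.8%, 14.4%, 8.08% and 12.8%. The lowest was thus segment 4, from 13776199 to 18368264, and not the one next to the centromere. Peak density ran the same way, with 134, 130, 110, 60.8 and 102 peaks per Mb. The median window had 19.9%, 20.0%, 12.4%, 4.85% and 9.86% in the same order. Windows within a segment spread as widely as the segments differed: their SD was 12.6 percentage points in segment 1 (n = 18 windows) and 9.79 in segment 5 (n = 19 windows).

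**Figure D3:**
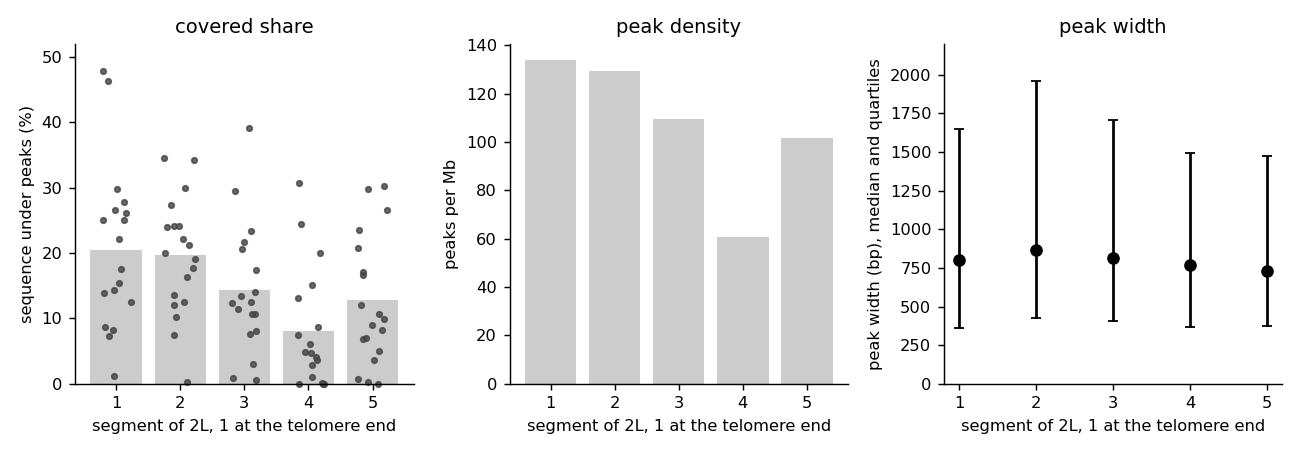
Covered share (%, grey bars, with each 250 kb window as a point), peaks per Mb, and peak width (bp, median with lower and upper quartile) in each of 5 equal segments of 2L, from 1 at the telomere end to 5 at the centromere end. Covered share and density are lowest in segment 4 (8.08% and 60.8 peaks per Mb), while median width stays between 733 and 867 bp.

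Peak density varied more along the arm than median peak size. Median width was 803, 867, 816, 769 and 733 bp in segments 1 to 5, and median score was 30.1, 38.2, 36.3, 35.1 and 30.2. The wide end of the distribution was less even. Peaks of 5 kb or wider numbered 36, 27, 15, 12 and 16, or 5.85%, 4.54%, 2.98%, 4.30% and 3.42% of the peaks of each segment. Mean width was 1530 and 1528 bp in segments 1 and 2 and 1315, 1330 and 1259 bp in segments 3 to 5. High-scoring peaks, those in the upper 25% of the whole list, numbered 147, 156, 132, 64 and 89, which is 32.0, 33.97, 28.7, 13.9 and 19.4 per Mb. Such peaks were 23.9%, 26.2%, 26.2%, 22.9% and 19.0% of the peaks of segments 1 to 5. Peaks below the median score of the list numbered 70.3, 58.8, 50.7, 29.2 and 56.0 per Mb. Weak and strong peaks were therefore both sparsest in segment 4.

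Set against each other, the ends of the arm were further apart in their outermost megabase than over whole segments. Segment 5 had 12.8% of its sequence under peaks and segment 1 had 20.5%, a difference of -7.66 percentage points and of -32.0 peaks per Mb. In bins of 1 Mb, the last bin (22000001 to 22960330) was covered to 1.52% by 19 peaks, the first to 33.9% by 160 peaks. Without the first and last 1 Mb, the same difference over the remaining stretch, cut into 5 segments again, was -3.00 percentage points. Spearman's rho between covered share and window order was -0.41 over the 92 windows and -0.26 without the outermost 1 Mb at each end. Within the arm it was -0.24 over windows 1 to 30, -0.57 over windows 31 to 61 and -0.044 over windows 62 to 92. Windows are neighbours on a single arm, so these values are descriptions.

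More of the marked sequence lay in the telomere-side part of the arm. Of all covered sequence, 25% lay before position 3813064 (16.6% of the arm's length), 50% before 8514681 (37.1%) and 75% before 14613566 (63.6%). In single megabases beyond the low stretch, some bins returned to slightly above the 15.1% of the whole arm. The bin from 16000001 to 17000000 had 15.998%, and those from 18000001 to 19000000 and 19000001 to 20000000 had 16.9% and 16.8%. Between them, 17000001 to 18000000 had 4.01%. From 20000001 on, the values of successive bins were 14.6%, 12.0% and 1.52%.

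The peak of highest score on 2L was also its widest. It lay at 476576 to 499866 in window 2, was 23.3 kb wide, had a score of 376 and ranked 27 by score and 6 by width in the whole list. Next by score came a much narrower peak at 2749177 to 2752851 (3.68 kb, score 356), a broad one at 5284840 to 5302272 (17.4 kb, score 330) and the first peak of the arm, at 1 to 9449 (9.45 kb, score 327). Others of high score were at 16281518 to 16287561 (score 311), 13203924 to 13210294 (score 309), 6082523 to 6092843 (score 306) and 7424972 to 7426494 (score 303). The last of these was only 1523 bp wide and ranked 703 by width on the arm. The group of 10 was completed by 6783449 to 6789860 (score 300.3) and 3056218 to 3059460 (score 299.6). Peaks of high score were found in every segment: the top score was 376, 330, 309, 311 and 294 in segments 1 to 5, the last of these at 20823552 to 20831349.

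Only 2 peaks were among both the 10 highest in score and the 10 widest. After the widest came 2161599 to 2181326 (19.7 kb), 510890 to 530157 (19.3 kb), 5284840 to 5302272 and 8689592 to 8705458 (15.9 kb). Those at 161015 to 175116 (14.1 kb) and 837918 to 850893 (13.0 kb) brought the number in segment 1 to 5 of 10. That segment held 615 of the 2460 peaks of the arm. In segment 5, 19133912 to 19147495 (13.6 kb) and 19154416 to 19167108 (12.7 kb) were neighbours, and 18139092 to 18152347 (13.3 kb) lay in segment 4. The 10 richest windows, which held 22.2% of all 2L peaks and 33 of the 106 peaks of 5 kb or wider, contained 2 of the 10 widest and 4 of the 10 highest in score.

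The 2 ends of the arm contrasted peak by peak. At the centromere end the last 3 peaks were at 22431783 to 22432207, 22472922 to 22473279 and 22959850 to 22960330, with widths of 425, 358 and 481 bp and scores of 17.2, 20.3 and 24.8. At the telomere end the first 3 were at 1 to 9449, 14475 to 18242 and 18999 to 20879, with widths of 9449, 3768 and 1881 bp and scores of 327, 99.7 and 93.5. Repeated sequence is common at both ends of a chromosome arm. The treatment of reads that align to several places is not known, so a true lack of the mark and a failure to place reads there cannot be told apart.

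Peaks on 2L stood close together, and joining them shows the marked stretches they form. Of the 2459 gaps between neighbours, 1482 (60.3%) were 1000 bp or shorter. The median gap was 657 bp, with quartiles of 253 and 3037 bp, and the shortest was 51 bp. Gaps became fewer without a break around the joining limit, with 61 of 900 to 1000 bp and 49 of 1000 to 1100 bp. Joining across gaps of 1000 bp or less gave 978 regions, with a median length of 2.20 kb and quartiles of 0.79 and 5.38 kb. Together the regions spanned 4.03 Mb, 17.6% of the arm, and the median region was filled by peaks to 92.7%.

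Single peaks were the commonest kind of region and large groups held the most sequence. There were 398 regions of 1 peak, which held 13.5% of the covered sequence, and 239 regions of 2 peaks, which held 17.3%. Regions of 3 or 4 peaks numbered 209 and held 29.3%. The 132 regions of 5 or more peaks, 13.5% of all regions, held 35.9% of the peaks and 39.99% of the covered sequence, with a median length of 10.7 kb. The median of the highest score in a region was 24.8 for regions of 1 peak, 54.7 for 2 peaks, 89.5 for 3 to 4 peaks and 135 for 5 or more. A region with more peaks has more chances of a high score, so this order is partly built in.

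**Figure D4:**
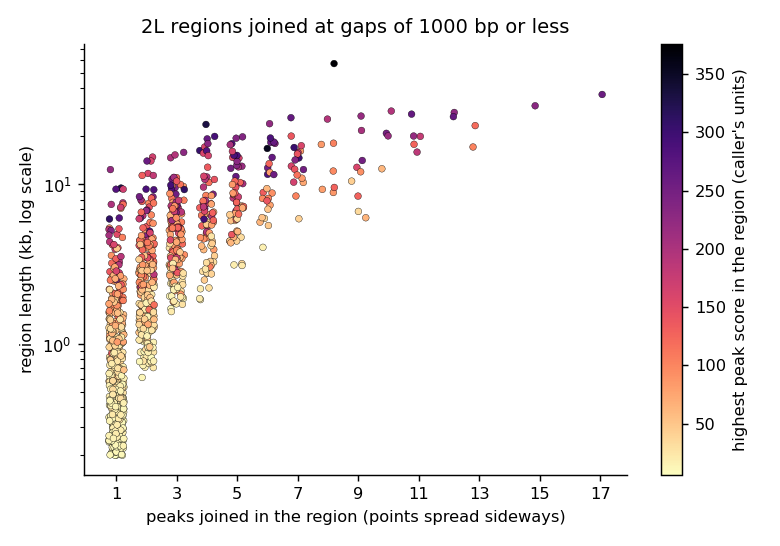
Each point is one of the 978 regions of 2L joined at gaps of 1000 bp or less, placed by the number of peaks in it (horizontal axis) and its length (kb, logarithmic vertical axis), with colour giving its highest peak score in the caller's units. Regions of more peaks are longer at the median, and a region of 8 peaks and 57.0 kb stands above all others.

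Pooled over region sizes, peaks inside a region were wider at the median than those at its edges. In the 341 regions of 3 or more peaks, the 902 inner peaks had a median width of 1011 bp and a median score of 43.7, against 699 bp and 29.1 for the 682 outer peaks. Of the inner peaks 27.6% were under 500 bp, and of the outer peaks 37.4%. Every such region gives the same number of outer peaks, so regions of many peaks weigh more among the inner ones. Widths were not compared within regions of the same size. Peaks alone in their region were narrower again, with a median of 593 bp, a median score of 24.8 and 43.5% under 500 bp. In regions of 3 peaks, the best-scoring peak was the middle one in 58 of 135 (43.0%), where 33.3% of the places are inner. In regions of 4 and 5 peaks it was an inner one in 58.1% and 66.7%, where 50% and 60% of places are inner. In the 25 regions of 6 peaks it was inner in 56.0%, where 66.7% of places are, so the order was not the same for all region sizes. Regions of more than 6 peaks are not given by size here.

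The longest region, at 476576 to 533525, was 57.0 kb long with 8 peaks and was filled to 97.0%. A pair of very wide peaks, of 23.3 kb (score 376) and 19.3 kb (score 213), made up 77.1% of its covered sequence. Between them lay a peak of 8.68 kb with a score of only 68.2, then 3 short ones of 629, 360 and 671 bp with scores of 34.5, 25.2 and 75.7. After the second wide peak came 1 of 2.04 kb (score 45.8) and 1 of 284 bp (score 11.7). The gaps inside ran from 56 to 678 bp. The region was thus close to an unbroken stretch, listed as pieces of very unequal score.

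The region with the most peaks was made differently. At 20061692 to 20098148, it held 17 peaks over 36.5 kb and was filled to 80.6%, with a median peak width of 1129 bp. Its best peaks lay towards the high-coordinate side, at 20085295 to 20091189 (5.90 kb, score 258) and 20081829 to 20084928 (3.10 kb, score 182). On its low-coordinate side stood a row of 4 weak peaks from 20070802 to 20072961, with widths of 413, 271, 337 and 529 bp and scores between 11.2 and 14.9. The gaps in the region ran from 52 to 892 bp. It lay in a run of windows below the median, windows 80 to 83, which were covered to 9.47%.

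Regions of 20 kb or longer numbered 18 and held 12.3% of the covered sequence. After the first pair they included 1642939 to 1673911 (30.97 kb, 15 peaks), 415283 to 443984 (28.7 kb, 10 peaks) and 281892 to 310012 (28.1 kb, 12 peaks). Also among the longest were 7984442 to 8011894 (27.5 kb, 11 peaks), 9941935 to 9968639 (26.7 kb, 9 peaks) and 8360108 to 8386576 (26.5 kb, 12 peaks). The list of 10 ended with 118012 to 144084 (26.1 kb, 7 peaks) and 8683930 to 8709483 (25.6 kb, 8 peaks). Of these 10 regions, 4 lay in the first megabase of the arm, which held 48 of all 978 regions. By peak number, 1059885 to 1076969 and 4879955 to 4903216, with 13 peaks each, ranked behind those of 17 and 15. The region at 1059885 to 1076969 was only 17.1 kb long and had a highest score of 102.

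Segments 1 to 5 held 224, 233, 203, 120 and 198 joined regions. Their median length was 2.46, 2.39, 2.52, 1.92 and 1.82 kb, and 41, 31, 27, 11 and 22 of them had 5 or more peaks. The number of peaks per region was 2.75, 2.55, 2.48, 2.33 and 2.36. Segment 4 therefore had the fewest regions and the fewest peaks per region. Segment 5 had nearly as many regions as segment 3, but they were shorter at the median and fewer held 5 or more peaks.

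A large part of the arm lay in a few long peak-free stretches. There were 43 gaps of 100 kb or longer, which is 1.75% of the gaps, and they took up 7.66 Mb or 33.4% of the arm. In segments 1 to 5 they numbered 10, 5, 7, 12 and 9 and took up 1.44, 0.81, 1.03, 2.62 and 1.76 Mb. The longest, from 22473280 to 22959849, was 487 kb and separated the last peak from the rest. Segment 4 held 4 of the 10 longest: 16909973 to 17376670 (467 kb), 17748977 to 18113989 (365 kb), 14674129 to 15005844 (332 kb) and 15922544 to 16249523 (327 kb). Others among the 10 were 21867610 to 22122041 (254 kb), 5548442 to 5799380 (251 kb), 12114048 to 12346901 (233 kb), 4592777 to 4808352 (216 kb) and 11526599 to 11736802 (210 kb). None of the 10 lay in segment 1. The 20 peaks bordering the 10 longest stretches were small, 420 bp wide at the median with a median score of 20.4, and 11 of them were under 500 bp. The largest score among them was 124, of a peak of 1548 bp at the high-coordinate side of the stretch that ends at 15005844.

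Beside the other large arms, 2L had 15.1% of its sequence under peaks, against 20.7%, 17.9%, 17.6% and 21.1% on 2R, 3L, 3R and X. It had 107 peaks per Mb, against 133, 125.3, 119 and 113 in the same order. Median peak width was 803 bp on 2L, against 827, 790, 845 and 968 bp, and median score was 33.4, against 32.5, 31.5, 32.9 and 36.5. The share of gaps of 1000 bp or less was 60.3% on 2L and between 60.5% and 63.9% on the others. Each arm is a single chromosome arm in a single list, so no test of these differences was made. The length of every arm was taken to the end of its last peak, so sequence beyond that peak was not counted.

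At the level of windows, 20 of 92 windows of 2L (21.7%) were covered below 5%, against 14 of 85 (2R), 10 of 92 (3L), 10 of 112 (3R) and 10 of 90 (X). At the other end, 7 windows of 2L (7.61%) reached 30%, against 21, 9, 15 and 23 windows of 2R, 3L, 3R and X. The arm made up 19.5% of all 471 windows of these arms. The lowest 47 included 14 windows of 2L, against 12, 6, 7 and 8 of 2R, 3L, 3R and X, and the highest 47 included 5 of 2L, against 13, 5, 7 and 17. Windows 1 and 2 of 2L nevertheless ranked 7 and 9 of all. Gaps of 100 kb or longer took up 33.4% of 2L, against 23.4% of 2R, 21.3% of 3L, 29.7% of 3R and 30.4% of X.

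**Figure D5:**
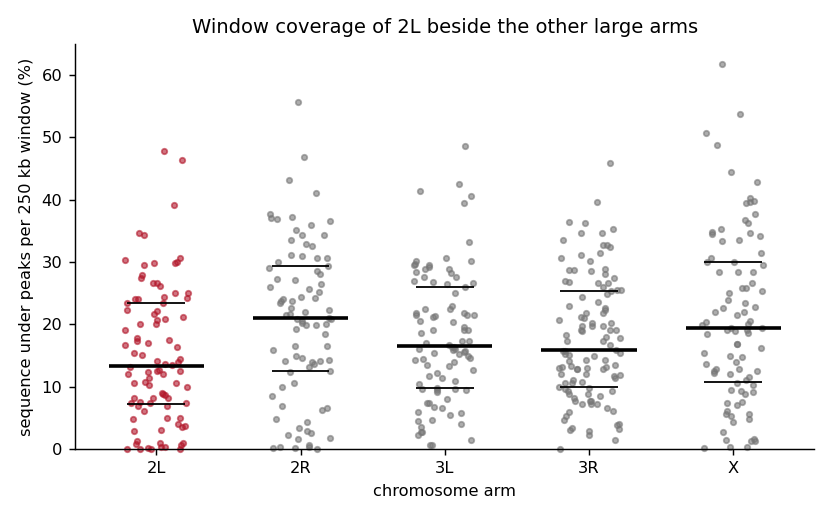
Share of sequence under peaks (%) in windows of 250 kb on 2L and on the other large arms, each point a window, with the median (thick line) and quartiles (thin lines). The median is 13.3% on 2L and 20.9%, 16.6%, 15.8% and 19.3% on 2R, 3L, 3R and X, and the ranges of all arms overlap.

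Coverage by segment took a different course on each arm. Counted from the telomere, it was 20.5%, 19.8%, 14.4%, 8.08% and 12.8% on 2L. It was 23.3%, 18.2%, 23.4%, 22.8% and 15.6% on 2R, and 23.9%, 14.3%, 16.3%, 18.4% and 16.8% on 3L. On 3R the values were 15.4%, 20.996%, 15.0%, 17.3% and 19.4%, and on X they were 23.8%, 22.8%, 22.4%, 21.6% and 14.8%. Segment 4 of 2L, with 8.08%, was the lowest of the 25 values. The outermost 1 Mb at the telomere end was covered to 33.9% on 2L, against 22.8%, 34.9%, 14.6% and 18.8% in the order 2R, 3L, 3R and X. The last 1 Mb at the centromere end was covered to 1.46% on 2L, against 0.31%, 9.52%, 19.3% and 4.64% in the same order. These differences were not tested. The ends were not defined alike on all arms. On 2L, 3L and X the centromere end was counted back from the last peak, which leaves out any peak-free sequence beyond it. On 2R and 3R it was the 1 Mb of lowest coordinates, and there the telomere end was counted back from the last peak.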

How the data were processed

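H3K4me1 ChIP and input DNA were sequenced from larvae (2 samples each). The authors deposited 1 peak list for the series. Per the file headers it was made with MACS on FlyBase release 5. BDGP5, BWA, MACS2 and CASAVA (1.7.0.2, 1.7.0.3) are named in the submitters' processing notes. How peaks were thresholded and samples combined is not given in the sources used here. The deposited score of each peak has no stated scale. Since 2 peaks of the list have a start of 0, and end minus start is never below 200 bp, starts were taken to count from 0.

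All peaks on 2L were used. Coverage was summed in windows of 250 kb, and a last window under 50% of that length would have been left out. The files' score was left as deposited. A peak was counted in the window that holds its centre. The arm's length was taken to the end of its last peak. Named items are the 10 highest or lowest of each measure, the 5 regions with the most peaks, 3 peaks at each end and the best peak of each of 5 equal segments of the arm. Runs and single windows were picked out after their values were seen. The members, rules and lists were chosen with earlier results of these data known. The functions were tested on simulated data with known coverage, regions and gaps. No test was made, because the list gives no value per sample. Alternatives were other score limits, window sizes, window origins, joining gaps, and the arm without its ends. A comparison with gene starts was planned but not run, because the gene table at hand is of release 6. Python 3.11.15, numpy 2.4.6, pandas 2.3.3, scipy 1.17.1 and matplotlib 3.10.9 were used.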

Additional observations from a re-analysis of the deposited data

How the results depend on the processing

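Of 55 alternative values, 39 stayed close to the reported value. Close meant within 1.5 times it, or inside its 95% binomial interval for the share of windows and for medians. That interval treats windows or regions as independent, which neighbours on an arm are not, so it served only as a yardstick. No value of rho or of the difference between segments 5 and 1 changed sign, and the other values cannot be negative. No paired analysis was possible because the list gives no value per sample, and no replicate could be left out. In the upper 25% of scores, which leaves 588 peaks on 2L, the median window was covered to 7.11%, 38.0% of windows were below 5%, and 415 joined regions had a median length of 3.61 kb, 3 of them with 5 or more peaks and the longest of 24.9 kb. In the upper 50%, the median length was 2.83 kb and 34 regions had 5 or more peaks. Fewer peaks enter these values by construction. Windows of 100 kb put 37.4% of windows below 5%, and windows of 500 kb 10.9%. Joining at 500 bp gave a median length of 1.37 kb and 53 regions of 5 or more peaks, and joining at 2000 bp a median of 3.29 kb, as the limit itself sets. The slope along the arm was weaker without the first and last 1 Mb (rho -0.26, and -3.00 percentage points between segments 5 and 1). Without the first 5 and last 7 windows, a choice made after seeing the data, rho was -0.22. What depth limits cannot be stated, because the depth is unknown.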
